A study of Fragaria vesca with 18 samples.

Results

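Long non-coding RNAs (lncRNAs) that lie within an intron of a gene and are read from the same strand as that gene are called intronic sense lncRNAs. RNA of this kind can come from a transcript of its own, from a stable piece of a spliced-out intron, or from unspliced precursor RNA of the host gene. Stranded sequencing places such reads on the host's strand, but it cannot separate these sources. A poly(A) tail marks most mature messenger RNAs, so a library made after its removal is relatively richer in RNA that lacks a tail.

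The class holds every locus of the deposited count table whose name begins with INTRONIC, 227 on the plus and 218 on the minus strand, out of 61763 rows in all. Positions, strands and exons came from the deposited assembly, where each of them was found. The others are 28588 annotated genes, 19247 intergenic, 12662 exonic antisense and 821 intronic antisense lncRNAs, classes read from the prefixes of the names. The material was fruit of Fragaria vesca, the diploid woodland strawberry (Hawaii4), grown in a greenhouse and given no treatment, with fruit of several plants combined in each of 3 biological replicates per stage. The 3 stages were immature fruit bearing green achenes, mature fruit bearing yellow achenes and mature fruit bearing brown achenes, called green, yellow and brown here. An achene is one of the dry, seed-like fruits set on the strawberry's fleshy receptacle. At each stage total RNA gave 3 libraries depleted of ribosomal RNA (rRNA-depleted) and 3 depleted of polyadenylated RNA (poly(A)-depleted), 18 libraries in 6 groups. Whole fruit was measured, so fewer cells of a type and less RNA per cell cannot be told apart.

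Library totals ran from 9.49 to 20.4 M counts after removal of polyadenylated RNA and from 47.2 to 76.9 M after removal of ribosomal RNA. Intergenic lncRNAs took 5.44 to 16.8% of the counts in the first kind and 1.49 to 5.02% in the second. Brown library 3 had the highest intergenic share of either kind. The position of host genes is not analysed here, so the host of a member is not named, and no sequences are shown because no genome of the files' build was used. A locus is given below by its XLOC number without the prefix, and levels are counts set to a common library total and scaled with TMM factors (normalised CPM).

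The members were spread over all 7 chromosomes. Chromosome 3 held 97, chromosome 6 held 83, chromosome 5 held 61, chromosome 7 held 59, chromosome 4 held 53, chromosome 1 held 49 and chromosome 2 held 40, and 3 lay on unplaced contigs. Most were single exons, with 399 (89.7%) having 1 exon, 46 having at least 2 and none more than 4. The exonic length had a median of 1042 bases and quartiles of 616 and 1574, and it ran from 207 to 10554 bases. Members could lie close together, with 58 within 1 kb of another member and 126 within 10 kb, so neighbours can be pieces of 1 intron or transcript. One locus, XLOC_031327, stands in the table as an intronic sense row with 26190 counts and as an intergenic row with 7 counts.

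The class as a whole was low and uneven. All members together held 376429 counts over the 18 libraries, and the 10 most abundant held 25.8% of them. A total of 10 counts was reached by 323 members and one of 100 counts by 225. In single libraries, 153 to 194 members (median 173) had at least 10 counts among the poly(A)-depleted and 160 to 222 (median 192) among the deeper rRNA-depleted libraries. All 18 libraries were at 0 for 87 members (19.6%). Over all members, the median level per kb of exonic length was 0.543 CPM in the poly(A)-depleted kind and 0.161 CPM in the other.

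The members without counts were nearly all loci that lie beneath another assembled locus on the opposite strand. The exons of 179 members overlapped exons of such a locus, and those of 266 did not. The opposite locus was an intronic antisense lncRNA for 129 members, an exonic antisense lncRNA for 51 and an intergenic lncRNA for 2, and some members had more than 1 kind. Of the 87 members at 0 in every library, 83 had such an overlap and 4 had none.

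The median total count was lower in each successive band of overlap. Members with no overlap had a median of 588.5 counts over the 18 libraries. The median was 256 counts in the 20 members covered over up to 50% of their exonic length, and 43.5 in the 18 covered over 50 to 75%. It was 13 counts in the 56 members covered over 75 to 95%. Of the 85 members covered over more than 95%, 77 (90.6%) were at 0 in every library. Among the 65 covered from end to end, 64 were at 0, and the exception had 203 counts.

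**Figure D1:**
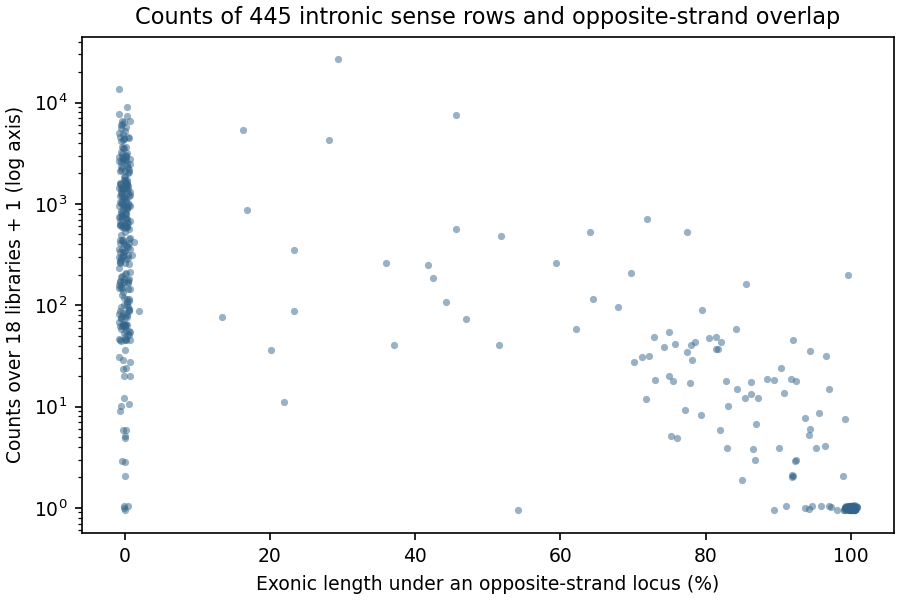
Each point is an intronic sense lncRNA. The x axis gives the percentage of its exonic length under a locus of the opposite strand, and the y axis its counts over 18 libraries plus 1, on a log axis; points are shifted slightly at random for visibility. The 65 members at 100% sit at the bottom of the plot, with 1 exception, while the 266 members at 0% spread over the whole range.

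Per kb the same order held in both kinds of library. In poly(A)-depleted libraries the median level was 2.37 CPM per kb (quartiles 0.549 and 5.27) without overlap, 0.753 with up to 50%, 0.171 with 50 to 75%, 0.0335 with 75 to 95% and 0 above 95%. In rRNA-depleted libraries the medians without overlap and with up to 50% were 0.419 and 0.163 CPM per kb. The pattern was not particular to this class. Of 3741 intergenic lncRNAs covered over more than 95% of their length, 3236 (86.5%) were at 0 in every library, against 36 of 10521 without overlap. Of 55 intronic antisense lncRNAs so covered, 48 (87.3%) were at 0, against 2 of 695 without overlap.

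The opposite-strand partners of the heavily covered members were themselves often counted. The 85 members covered over more than 95% had 81 such partners, of which 10 were at 0, with a median of 147 counts. The 53 intronic antisense partners had a median of 29 counts, and the 28 exonic antisense partners had a median of 2506.5 with none at 0. No source used here names the counting program or its strand setting, and whether counting set the zeros was not tested. A 0 count of a covered member is therefore not given here as absence of its RNA. Of the 225 members with at least 100 counts, 203 had no overlap and 22 had some.

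The first comparison between groups asked how the kinds of library sample the class. Intronic sense lncRNAs took a larger share of the counts in poly(A)-depleted libraries, and most tested members were higher there one by one. A smaller set of mostly short members was lower. The share was 0.154 ± 0.0625% with polyadenylated RNA removed and 0.0357 ± 0.0126% with ribosomal RNA removed (mean ± SD, n = 9 each), a ratio of 4.31. The difference of 0.118 percentage points had p = 0.00025 in an exact permutation test, two-sided, in which all 8000 exchanges of library kind within stages were made. That is the smallest p this test can give. The test takes the libraries of a stage as unpaired, and an exchange within pairs is given in the closing section.

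By stage, poly(A)-depleted shares were 0.0980 ± 0.0106% at green, 0.202 ± 0.0277% at yellow and 0.162 ± 0.0803% at brown (SD, n = 3). The rRNA-depleted shares were 0.0337 ± 0.000491%, 0.0293 ± 0.0104% and 0.0442 ± 0.0189%. Every poly(A)-depleted library lay above every rRNA-depleted one. The brown poly(A)-depleted libraries spread widely, at 0.0841, 0.156 and 0.244%, from below the green range to above the yellow range. Intergenic lncRNAs moved in the same way across libraries. For every 1000 intergenic counts the class had between 13.2 and 17.8 counts in all 18 libraries, with a median of 14.7, although the intergenic share itself ran from 1.49 to 16.8%. The 3 highest of these ratios, 16.5, 17.5 and 17.8, were those of the rRNA-depleted green libraries.

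**Figure D2:**
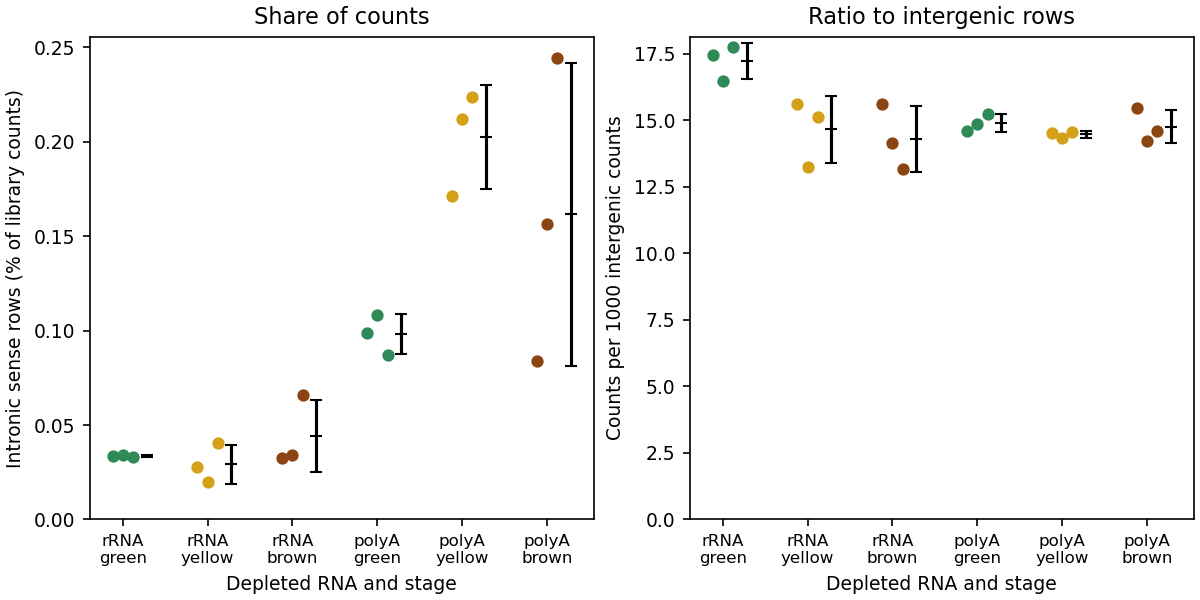
Each point is 1 library, grouped by the depleted RNA and the stage; the dash and bar beside each group are the mean and SD of 3 libraries. The left panel gives the percentage of a library's counts in intronic sense lncRNAs, from 0.0198 to 0.244%, and the right panel the intronic sense counts per 1000 intergenic counts, which stayed between 13.2 and 17.8.

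Of all members, 260 had enough counts for the test between library kinds (edgeR's quasi-likelihood test, Benjamini-Hochberg adjustment over all 52101 rows tested, called at an adjusted p under 0.05). In poly(A)-depleted libraries 146 of these (56.2%) were higher and 30 (11.5%) were lower. Over all rows tested, 77.2% were called, 43.0% higher and 34.1% lower. Of the 146 higher members 36, and of the 30 lower ones 2, reached the low-count filter (10 counts in a library of median size, in 3 libraries) only with the libraries of the kind in which they were high, and their calls are no support for the split. The median log2 fold change was 1.10 over the members and 0.40 over all rows. Intergenic lncRNAs had a median of 1.31, intronic antisense lncRNAs −0.20 and annotated genes −0.21.

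The split depended on the scaling of the libraries. With TMM factors from annotated genes only, 157 members were higher and 17 lower, with a median of 1.53 against 0.84 over all rows. With library size alone, 193 were higher and 3 lower, with a median of 2.52 against 1.88 over all rows. All 146 members higher in the first fit were also called higher under both scalings. Both scalings moved all rows upwards, so this outcome was favoured in advance and is no support. The 146 also include the 36 members that reached the filter only with the kind in which they were high. With median-of-ratios size factors 145 members were higher and 31 lower, with a median of 1.06 against 0.35 over all rows. Of the 146, 145 stayed higher there. Of the 30 lower ones, 17 stayed lower with the factors from genes and 3 with library size alone, where 1 turned higher. The intergenic share does not overlap between the kinds of library, and with it as a covariate (an alternative added after seeing the data) no member was called. The share over all rows in that fit is not given here.

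Members that were higher in poly(A)-depleted libraries were longer, with a median exonic length of 1356 bases against 746.5 for the lower ones and 699 for those not called. Their median level was 4.52 CPM per kb in the poly(A)-depleted kind and 0.522 in the rRNA-depleted kind, each kind scaled on its own. The lower members stood at 1.76 and 1.53 CPM per kb on the same separate scales, which do not compare the kinds. Across the 18 libraries, the log2 level of the 146 higher members had a median correlation of 0.77 with the summed level of the other members, and none was below 0. For the 30 lower members the median was −0.71, with 29 below 0. These correlations are descriptions, since the libraries share the kind, the stage and the depth that define the groups.

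**Figure D3:**
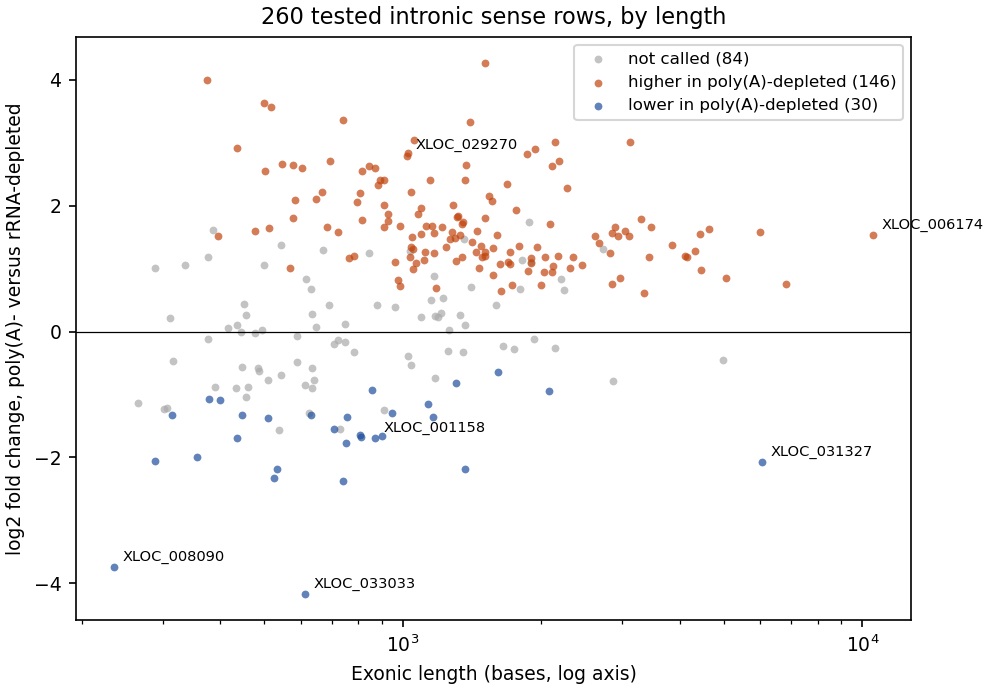
Each point is 1 of 260 tested intronic sense lncRNAs, placed by exonic length (bases, log axis) and by the log2 fold change of poly(A)-depleted over rRNA-depleted libraries averaged over 3 stages. Red points are the 146 members called higher and blue points the 30 called lower; the lower ones lie mostly below 1000 bases, with the 6052-base XLOC_031327 apart from them.

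The members named from this comparison are the 2 largest rises and the 2 largest falls among called members with replicates that did not overlap within any stage and at least 1 CPM in the higher kind. Of the 176 called members, 49 met these conditions, 45 of them higher and 4 lower. The same conditions were not counted over all rows, so these numbers describe the choice of members and not the class. All values in the next sentences are CPM scaled over the 18 libraries together, listed for replicates 1, 2 and 3.

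The largest fall was that of XLOC_033033, a locus of 2 exons on chromosome 7 (23862296 to 23863033, minus strand, 612 exonic bases). In rRNA-depleted libraries it stood at 0.742, 0.696 and 0.551 CPM at green, 2.69, 44.2 and 11.3 at yellow, and 25.6, 43.4 and 4.82 at brown. Without polyadenylated RNA it stood at 0, 0 and 0.183, then 0.0559, 0.914 and 0.174, then 3.19, 2.94 and 0.373. The kinds did not overlap at any stage, and the ripe stages spread widely within each kind. Its log2 fold change was −4.16 ± 0.64 (SE; edgeR adjusted p = 1.52e-05). It was −5.41 without the poly(A)-depleted green library 3, the 1 green library of that kind with any counts.

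XLOC_008090 is the shortest member named, a single exon of 235 bases on chromosome 3 (4439614 to 4439848, plus strand). Its rRNA-depleted libraries held 6.05, 7.76 and 8.12 CPM at green, 10.2, 23.6 and 13.6 at yellow, and 19.6, 16.7 and 5.14 at brown. The other kind held 3.22, 1.42 and 2.1, then 0.279, 0.208 and 0.0868, then 2.90, 1.04 and 0.808. The gap between the kinds was widest at yellow. The log2 fold change was −3.74 ± 0.33 (edgeR adjusted p = 7.01e-08). With library size alone both falls were smaller, at −2.59 for XLOC_033033 and −2.23 for XLOC_008090, and both were still called.

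In the other direction, XLOC_029270 (chromosome 6, 38514897 to 38515916, minus strand, 1020 bases) had a log2 fold change of 2.79, given without a p because it reached the low-count filter only with poly(A)-depleted libraries. Poly(A)-depleted libraries held 0.231 to 1.99 CPM and rRNA-depleted libraries 0 to 0.418 CPM, over 352 counts in all. Its levels in the kinds overlapped between stages but not within one. XLOC_021385 (chromosome 5, 7021725 to 7022326, minus strand, 602 bases) had 2.59 ± 0.52, with an edgeR adjusted p of 0.000188. It held 0.666 to 3.10 CPM and 0 to 0.758 CPM. With library size alone the changes were 4.31 and 4.20.

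With each kind scaled on its own, several of the most abundant members were long loci with higher values in poly(A)-depleted libraries. Others had like values in both kinds, but such values share no common scale between kinds. The members were chosen by level, and the levels on these separate scales are described without a test. By total level the highest was XLOC_006174, the longest member, a single exon of 10554 bases on chromosome 2 (7023273 to 7033826, minus strand). Its poly(A)-depleted libraries held 42.7, 56.9 and 46.2 CPM at green, 76.9, 89.8 and 91.7 at yellow, and 54.4, 69.4 and 80.2 at brown. The rRNA-depleted libraries held 4.34 to 17.7 CPM, with brown library 3 the highest. Green and yellow poly(A)-depleted libraries did not overlap, and brown overlapped both. Scaled over the 18 libraries together, its poly(A)-depleted means were 29.6, 50.2 and 40.4 CPM at green, yellow and brown. The rRNA-depleted means on that scale were 10.7, 13.0 and 17.8 CPM, and the log2 fold change between kinds was 1.53.

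XLOC_029043 had the same shape. It is a single exon of 6001 bases on chromosome 6 (35314736 to 35320736, minus strand), 781 bases from the next member, XLOC_029044. Its poly(A)-depleted libraries held 30.5 to 35.8 CPM at green, 53.0 to 61.2 at yellow and 37.6 to 60.7 at brown. The rRNA-depleted ones held 3.37 to 13.7 CPM. XLOC_025850 (chromosome 6, 33784159 to 33788620, plus strand, 4462 bases), XLOC_032503 (chromosome 7, 17171847 to 17176277, minus strand, 4431 bases) and XLOC_023703 (chromosome 6, 6804459 to 6812970, plus strand, 2 exons, 6834 bases) followed. Their levels per kb in poly(A)-depleted libraries were 7.67, 6.66 and 4.56 CPM, and in rRNA-depleted libraries 1.44, 0.824 and 0.964 CPM. An exonic antisense locus covers 46.3% of XLOC_023703.

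XLOC_031327 was the exception among the 6 members highest by CPM. It has 2 exons and 6052 exonic bases on chromosome 7 (3064057 to 3071497, minus strand), of which 28.9% lie under an intergenic locus of the opposite strand. It held the most counts of the class. Its rRNA-depleted libraries had 48.8, 42.7 and 51.1 CPM at green, 32.0, 49.1 and 32.6 at yellow, and 43.2, 43.5 and 9.11 at brown. Its poly(A)-depleted libraries had 41.4, 39.6 and 55.4, then 16.3, 15.9 and 18.2, then 37.9, 19.6 and 15.3. Brown library 3 was the lowest of its kind in both, and the poly(A)-depleted yellow libraries lay below all 3 green ones.

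Per kb of exonic length, 6 members under 900 bases stood highest. XLOC_008090 reached 30.02 CPM per kb in rRNA-depleted and 9.59 in poly(A)-depleted libraries. XLOC_007355 (chromosome 2, 22892888 to 22893642, minus strand, 755 bases) stood at 13.5 and 17.3 CPM per kb. XLOC_029336 (chromosome 6, 39381413 to 39382223, minus strand, 811 bases) stood at 12.6 and 12.9. XLOC_033033 stood at 13.3 and 2.37, XLOC_001158 (chromosome 1, 15405729 to 15406600, plus strand, 872 bases) at 11.04 and 10.1, and XLOC_016016 (chromosome 4, 33702789 to 33703234, plus strand, 446 bases) at 7.96 and 9.36. The order among them varied with the library, since several spread over a wide range within a stage. Each kind was scaled on its own here. In the fit of all 18 libraries all 6 were called lower in poly(A)-depleted libraries. XLOC_007355, XLOC_029336, XLOC_001158 and XLOC_016016 had log2 fold changes of −1.36, −1.68, −1.69 and −1.32. Lower calls depended on the scaling. Of the 30 in the class, 3 stayed with library size alone, XLOC_033033 and XLOC_008090 among them.

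XLOC_007355 held 15.1, 12.7 and 12.5 CPM in rRNA-depleted green libraries, 8.71, 10.3 and 7.85 at yellow, and 17.9, 4.24 and 2.63 at brown. The poly(A)-depleted values were 26.1, 15.1 and 20.5, then 8.24, 2.72 and 4.89, then 30.7, 5.68 and 3.48. In both kinds brown library 1 was the highest of the 9 and brown library 3 among the lowest. XLOC_001158 varied less, at 5.45 to 12.5 CPM in rRNA-depleted and 4.53 to 12.5 CPM in poly(A)-depleted libraries. Of the spliced members, XLOC_010881 (chromosome 3, 4182669 to 4184065, minus strand, 2 exons, 1177 bases) also varied little within a kind, at 1.74 to 3.69 and 5.67 to 10.7 CPM.

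**Figure D4:**
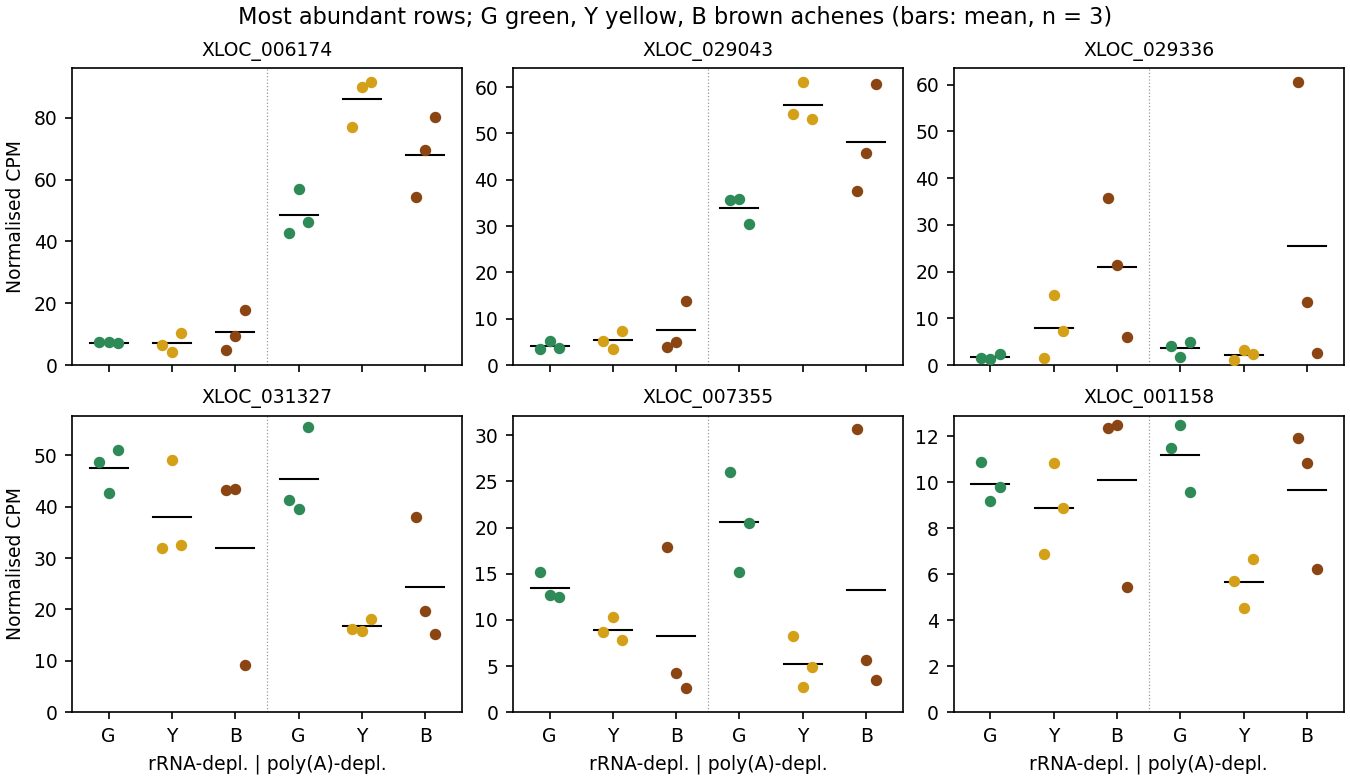
Normalised CPM of 6 abundant intronic sense lncRNAs in every library (points; bars are means of 3 libraries), by stage (G green, Y yellow, B brown), with rRNA-depleted libraries left and poly(A)-depleted libraries right of the dotted line, each kind scaled on its own. On these separate scales XLOC_006174 and XLOC_029043 have higher values on the right. XLOC_031327, XLOC_007355, XLOC_029336 and XLOC_001158 have like values on both sides, but the sides share no common scale. The fit of all 18 libraries called the latter members lower in poly(A)-depleted libraries, with log2 fold changes of −2.07, −1.36, −1.68 and −1.69. Such calls depended on the scaling: 3 of the 30 lower calls of the class stayed with library size alone.

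Other rows followed the same profiles closely. Across the 18 libraries, the row most like XLOC_006174 in log2(CPM + 0.5) was the annotated gene FvH4_6g35120 (Pearson r = 0.992), followed by the intergenic LINC.XLOC_002634 (0.992), and 1326 rows passed 0.95. For XLOC_029043 they were the intergenic LINC.XLOC_003410 (0.995) and LINC.XLOC_021863 (0.992), with 1259 rows past 0.95. For XLOC_031327 they were the annotated genes FvH4_1g21840 (0.990) and FvH4_6g23770 (0.986), with 819 rows past 0.95. These correlations are descriptions, over libraries that share kind, stage and depth.

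Stage differences were tested within each kind of library. In rRNA-depleted libraries 225 members entered the test. From green to yellow 1 rose and 2 fell, and from green to brown 10 rose and 4 fell. Of all 49283 rows tested, 7.06% were called from green to yellow (2.56% higher, 4.49% lower) and 14.5% from green to brown (4.35% higher, 10.1% lower). The median log2 fold change of the members was 0.00 for yellow and 0.35 for brown, against 0.00 and 0.16 over all rows. Both contrasts use the same green libraries. Of the falls at yellow, 1 concerns a member that reached the low-count filter only with the green libraries, and no such member is among the 14 calls at brown.

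The counts of calls depended on single libraries, and shares over all rows with a library left out are not given here. From green to yellow, 1 member was called without green library 1, 2 or 3 or yellow library 2, and 6 without yellow library 1. From green to brown, 5, 6 and 3 members were called without green library 1, 2 and 3, and 8 without brown library 3, whose intergenic share was 5.02% against 1.49 to 2.67% in the other rRNA-depleted libraries.

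The riser in both rRNA-depleted contrasts was XLOC_033033. Scaled within its kind, it held 0.496, 0.460 and 0.389 CPM at green, 1.45, 23.7 and 6.22 at yellow, and 13.8, 23.5 and 3.14 at brown. All ripe libraries lay above all green ones, and yellow and brown overlapped. The log2 fold change was 4.53 ± 0.89 at yellow (edgeR adjusted p = 0.00504) and 4.90 ± 0.90 at brown (edgeR adjusted p = 0.00196). It was called under each alternative run for these contrasts, with 3.18 at yellow without yellow library 2 and 4.30 at brown without brown library 2. The poly(A)-depleted libraries were near 0 at green, at 0, 0 and 0.307 CPM, and reached 5.75, 4.39 and 0.673 at brown, but the change of 5.04 ± 1.46 was not called (edgeR adjusted p = 0.0761).

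XLOC_001679 (chromosome 1, 22668329 to 22669696, plus strand, 1 exon, 1368 bases) rose from green to brown in both kinds. Its rRNA-depleted libraries held 0.601, 0.322 and 0.0486 CPM at green and 5.90, 7.65 and 2.0 at brown. The poly(A)-depleted values were 4.52, 2.01 and 3.22 at green and 18.1, 13.7 and 7.45 at brown. At yellow, the rRNA-depleted library 2 stood at 11.4 CPM and the other two at 0.435 and 0.362. Green and brown did not overlap in either kind. The log2 fold changes were 3.99 ± 1.17 and 2.0 ± 0.43 (edgeR adjusted p = 0.0331 and 0.0275). The rRNA-depleted call was lost without green library 2 or 3 or brown library 1 or 2 (edgeR adjusted p from 0.0735 to 0.117) and with library size alone (edgeR adjusted p = 0.0588), and the change was 4.74 without green library 1. The poly(A)-depleted call was lost without green library 1, 2 or 3 or brown library 2 (edgeR adjusted p from 0.0540 to 0.129).

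XLOC_004767 (chromosome 2, 16422468 to 16427552, plus strand, 2 exons, 4964 bases) also rose in both kinds from green to brown. Its poly(A)-depleted libraries held 2.96, 4.24 and 3.60 CPM at green, 4.31, 6.07 and 4.58 at yellow, and 32.5, 7.83 and 8.24 at brown. The rRNA-depleted values were 1.47, 1.13 and 0.518, then 1.25, 9.11 and 2.01, then 12.1, 5.70 and 3.92. Green and brown did not overlap in either kind, and brown library 1 was the highest in both. The log2 fold changes were 2.16 ± 0.53 (edgeR adjusted p = 0.0434) and 2.80 ± 0.70 (edgeR adjusted p = 0.0145). In poly(A)-depleted libraries the change was 1.33 without brown library 1, and the call was lost without green library 1, 2 or 3 or yellow library 2 (edgeR adjusted p from 0.0677 to 0.177), with the replicate block (edgeR adjusted p = 0.0715) and in a fit of the 2 stages alone (edgeR adjusted p = 0.0576). The rRNA-depleted call was lost without green library 3 or brown library 1 (edgeR adjusted p = 0.0721 and 0.0650).

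Among members with at least 1 CPM in the higher group, the largest fall was that of XLOC_025915, a single exon of 302 bases on chromosome 6 (34513379 to 34513680, plus strand). Its rRNA-depleted libraries held 2.78, 4.02 and 3.55 CPM at green, 1.05, 0 and 0.348 at yellow, and 0.0169, 0.185 and 0.0300 at brown. The poly(A)-depleted values were 2.81, 4.67 and 5.90, then 0.562, 0 and 0, then 0.258, 0.516 and 0.112. Every green library lay above every ripe library of its kind. The log2 fold change was −5.46 ± 1.15 from green to brown in rRNA-depleted libraries (edgeR adjusted p = 0.00474), and −6.96 without brown library 2. From green to yellow in poly(A)-depleted libraries it was −4.62, but there the member reached the low-count filter only with the green libraries, so no p is given. The changes were −2.85 in rRNA-depleted yellow and −3.92 in poly(A)-depleted brown libraries, neither of which was called (edgeR adjusted p = 0.108 and 0.0746).

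XLOC_022294 (chromosome 5, 18741391 to 18742979, minus strand, 2 exons, 1132 bases) was lower at yellow in both kinds. It held 2.81, 3.49 and 4.81 CPM in rRNA-depleted green libraries, 0.786, 0.267 and 0.697 at yellow, and 1.47, 0.252 and 0.255 at brown. The other kind held 4.66, 3.37 and 8.89, then 0.468, 0.0698 and 0.310, then 3.35, 0.774 and 2.02. Green did not overlap yellow in either kind, while poly(A)-depleted brown library 1 lay just under the lowest green library. The rRNA-depleted log2 fold changes were −2.65 ± 0.70 at yellow and −2.49 ± 0.70 at brown (edgeR adjusted p = 0.0329 and 0.0271). The poly(A)-depleted change at yellow was −4.32, given without a p because the low-count filter was reached only with the green libraries.

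The rRNA-depleted calls of XLOC_022294 rested on several libraries. In rRNA-depleted libraries the yellow call was lost without green library 1, 2 or 3 or yellow library 2 or 3 (edgeR adjusted p from 0.0635 to 0.147). The brown call was lost without green library 1, 2 or 3 or brown library 2 or 3 (edgeR adjusted p from 0.0511 to 0.117), and the change was −3.76 without brown library 1. With library size alone both calls were lost (edgeR adjusted p = 0.0799 and 0.0502). The brown call was also lost once the intergenic share was a covariate (edgeR adjusted p = 0.0761).

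The other fall from green to yellow in rRNA-depleted libraries was that of XLOC_032922 (chromosome 7, 22282245 to 22282635, minus strand, 1 exon, 391 bases), which lay below 1 CPM and is named here after its values were seen. It held 0.180, 0.230 and 0.356 CPM at green, 0 in all 3 yellow libraries, and 0, 0 and 0.0300 at brown. Without polyadenylated RNA it held 0.222, 0.574 and 0.766 CPM at green and 0 in every ripe library. Counts were seen in each green library of both kinds and in 1 ripe library. Against a floor of 3 counts over the yellow group, the rRNA-depleted green level was at least 16.0-fold higher. It reached the low-count filter only with the green libraries, where it is high, so no p is given and its call supports nothing. It did not pass the filter of the poly(A)-depleted libraries.

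**Figure D5:**
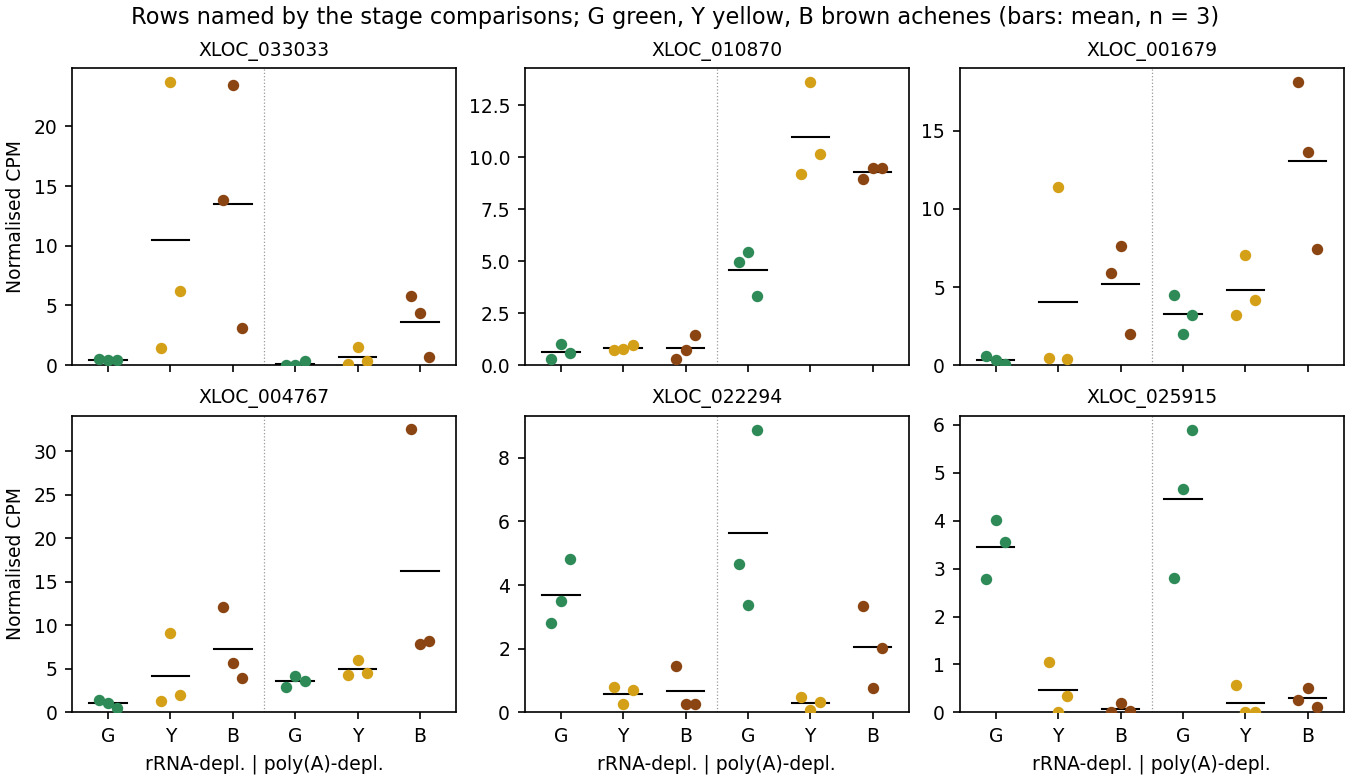
Normalised CPM in every library (points; bars are means of 3 libraries) of 6 intronic sense lncRNAs called between stages, with rRNA-depleted libraries left and poly(A)-depleted libraries right of the dotted line, each kind scaled on its own (G green, Y yellow, B brown). XLOC_022294 and XLOC_025915 are highest at green; XLOC_001679 and XLOC_004767 are higher at brown than at green in both kinds; the poly(A)-depleted libraries of XLOC_010870 are lower at green than at the ripe stages.

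Of all members, 190 entered the stage tests of the poly(A)-depleted kind. From green to yellow 10 rose and 6 fell, and from green to brown 6 rose and none fell. Of all 48201 rows tested, 10.8% were called from green to yellow (2.95% higher, 7.85% lower) and 5.66% from green to brown (1.28% higher, 4.38% lower). The members' median log2 fold changes were 0.58 and 0.44, against 0.19 and 0.15 over all rows. At an unadjusted p under 0.05 there were 71 and 50 members, 37.4 and 26.3% of those tested, close to the 38.7 and 24.2% of all rows. Of the 6 falls at yellow, 3 (XLOC_025915, XLOC_022294 and XLOC_007636) concern members that reached the low-count filter only with the green libraries, so that count supports nothing.

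The rises at yellow were small and alike, from 0.71 to 1.26 on the log2 scale. Falls of members that did not depend on the green libraries for the filter were −0.99 (XLOC_001158), −1.44 (XLOC_031327) and −3.49 (XLOC_008090). The other falls, down to −4.62, are not set against the rises. Across the 18 libraries of both kinds, the 10 that rose had correlations of 0.743 to 0.937 with the summed level of the other members, and the 6 that fell had −0.847 to −0.699. Such correlations are descriptions and no support. The members were picked by their change in some of these libraries, which also share kind, stage and depth. The intergenic share moved with these stages, at 5.70 to 7.28% in green and 11.8 to 15.4% in yellow libraries. With it as a covariate no member was called from green to yellow and 13 were called from green to brown. The shares over all rows in that fit are not given here. With TMM factors from annotated genes 62 members rose and 5 fell at yellow, against 10 and 6, while over all rows the share called higher moved from 2.95 to 19.0%, the share called lower from 7.85 to 8.13% and the median from 0.19 to 0.56. With median-of-ratios size factors 6 rose and 6 fell, while 1.99% of all rows were called higher and 8.11% lower.

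Single libraries moved these counts more than in the other kind. From green to yellow, 1, 3 and 0 members were called without green library 1, 2 and 3, and 6, 0 and 0 without yellow library 1, 2 and 3. Leaving out brown library 1, 2 or 3 gave 72, 9 and 76. The brown libraries are not in this contrast but enter the filter, the scaling and the estimate of the spread. Shares over all rows with a library left out are not given here, so these counts are not read as a trait of the class. From green to brown the counts were 1, 1 and 0 without the green libraries, 2 and 3 without yellow library 2 and 3, and 54, 1 and 23 without brown library 1, 2 and 3.

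The largest rises at yellow were those of XLOC_010870 and XLOC_029044. XLOC_010870 (chromosome 3, 4008196 to 4009125, minus strand, 1 exon, 930 bases) held 4.96, 5.46 and 3.30 CPM at green, 9.17, 13.6 and 10.2 at yellow, and 8.93, 9.46 and 9.47 at brown. All ripe libraries lay above all green ones. Its log2 fold change at yellow was 1.26 ± 0.24 (edgeR adjusted p = 0.0170), and the call was lost without green library 1 or 3 or yellow library 2 or 3 (edgeR adjusted p from 0.0580 to 0.1004) or once the intergenic share entered the fit (edgeR adjusted p = 0.118). In rRNA-depleted libraries it held 0.286 to 1.44 CPM, and no stage contrast was called there.

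XLOC_029044 (chromosome 6, 35321517 to 35322182, minus strand, 1 exon, 666 bases), the neighbour of XLOC_029043, held 2.0, 2.66 and 2.22 CPM at green, 4.68, 5.86 and 5.67 at yellow, and 3.52, 5.16 and 7.68 at brown. Green lay below both ripe stages, which overlapped. Its log2 fold change at yellow was 1.23 ± 0.34 (edgeR adjusted p = 0.0491). The call was lost without each of the green and yellow libraries in turn and without brown library 2 (edgeR adjusted p from 0.0615 to 0.175). It was also lost with median-of-ratios factors, library size alone and no low-count filter (edgeR adjusted p = 0.0523, 0.0698 and 0.0558), and the change was 0.49 with the intergenic share as a covariate (edgeR adjusted p = 0.541).

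No member was called between yellow and brown by edgeR's quasi-likelihood test in either kind, and none of all rows was (0.00% in each). At an unadjusted p under 0.05 there were 20 members in rRNA-depleted and 11 in poly(A)-depleted libraries, 8.89 and 5.79% of those tested against 13.2 and 9.20% of all rows, and DESeq2 called none in both. The median log2 fold changes were 0.41 and −0.12. In rRNA-depleted libraries 2 members were called without yellow library 2. Among poly(A)-depleted libraries 46 were called without brown library 3, which had the highest intergenic share of all, 16.8%. The shares over all rows in these 2 fits are not given here.

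Whether the stage changes differed between the kinds of library was tested as an interaction in the fit of all 18 libraries. No member of 260 was called by edgeR's quasi-likelihood F test, against 0.0845% of all rows. There were 10 at an unadjusted p under 0.05, 3.85% of the members tested against 18.9% of all rows, and DESeq2 called 1. With a term for each pair of libraries of the same stage and number, a fit added after seeing the data, edgeR called 4 of 260 members (1.54%) against 17.4% of all rows: XLOC_008090, XLOC_029336, XLOC_007355 and XLOC_023695, named after their values were seen. The labels do not say that such pairs share fruit. For other members, a call in 1 kind of library and not in the other does not show that the kinds differ. Of the members tested in both kinds, 1 was called in both from green to yellow (XLOC_022294, in poly(A)-depleted libraries only through the filter described above) and 2 from green to brown (XLOC_001679 and XLOC_004767), each in the same direction in both kinds.

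The smallest adjusted p of the interaction was that of XLOC_008090, at 0.0566 in edgeR's test. Scaled within each kind, its poly(A)-depleted libraries held 5.26, 2.30 and 3.53 CPM at green, 0.468, 0.349 and 0.155 at yellow, and 5.24, 1.55 and 1.46 at brown. Its rRNA-depleted libraries held 4.04, 5.13 and 5.73, then 5.50, 12.6 and 7.47, then 10.6, 9.05 and 3.35. Yellow was the lowest stage in the first kind and did not overlap the others, whereas in the second kind yellow overlapped both. The change from green to yellow on the log2 scale was −3.49 in the first kind and 0.78 in the second. The interaction passed the threshold without brown library 1 or 3 of the poly(A)-depleted kind (edgeR adjusted p = 0.0146 and 0.00766), without yellow library 1 or 2 or brown library 3 of the rRNA-depleted kind (edgeR adjusted p = 0.0298, 0.0452 and 0.0168), and in the fit with pair terms (edgeR adjusted p = 0.00512). Without both brown libraries 3, a choice made after seeing the data, 4 members were called.

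The next was XLOC_007636 (chromosome 2, 27268466 to 27276932, minus strand, 2 exons, 436 exonic bases), with an edgeR adjusted p of 0.188. It held 3.04, 3.80 and 3.22 CPM in poly(A)-depleted green libraries, 0.281, 0.279 and 0.388 at yellow, and 1.55, 1.03 and 0.280 at brown. In rRNA-depleted libraries it held 1.43, 1.83 and 2.90, then 1.09, 0.735 and 1.03, then 0.880, 0.589 and 0.841. Green was the highest stage in both kinds, without overlap.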

How the data were processed

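Sequencing was stranded and paired-end, per the labels. The authors deposited 1 table of raw counts, whole numbers per locus and library with no normalization, and the exons of assembled transcripts. TopHat2 2.1.2, STAR 2.5.4b and Trim Galore 0.4.2 are listed without roles, per the submitters' processing notes. The counter, its strand setting and the genome build were not given in the sources used here. Lengths, positions (counted from 1) and opposite-strand overlap, in exonic bases shared with any exon of an assembled locus on the other strand, were computed from the deposited exons. Annotated genes have no position there and could not be part of the overlap.

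The 445 members were fitted with all other rows in R 4.3.3 with edgeR 4.0.16 and limma 3.58.1, using TMM, filterByExpr, the quasi-likelihood F test and Benjamini-Hochberg adjustment over all rows tested. Each library kind had its own fit of 9 libraries and 3 stages; a fit of all 18 gave the difference between kinds and the interaction (2 degrees of freedom). Standard errors were derived from F. The scripts were tested on simulated data. Members were named when called, with replicates that did not overlap and at least 1 CPM in the higher group: the 2 largest rises and falls per comparison, the 2 smallest interaction p-values, and, untested, the 6 highest by CPM and per kb, the 2 longest and up to 4 spliced. The members and lists were chosen with earlier results of these data known. Alternatives were other scalings, filters, DESeq2 1.42.0, a replicate block, fits of 2 stages, each library left out and, added after seeing the data, the intergenic share as a covariate, pair terms and both brown libraries 3 left out.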

Additional observations from a re-analysis of the deposited data

How the results depend on the processing

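The share of counts in the class kept its direction and its side of the threshold under all 23 alternatives, with differences of 0.104 to 0.131 percentage points when each library was left out. The 176 calls between library kinds became 165 to 183 with each library left out and 0 once the intergenic share was a covariate, which separates the kinds by itself. Counts of members called between stages were less stable, and the cause was not tested. The share of all rows called is given beside them for other scalings. For the other settings of the stage tests it is not given here, so those counts are not read as a trait of the class. In rRNA-depleted libraries the 3 calls at yellow became 1 with library size only, 5 with DESeq2, 5 with the covariate and 1 to 6 with each library left out. The 14 at brown became 5 with library size only (3 higher, 2 lower), 26 with DESeq2 and 3 to 21 with each library left out. With library size only, the share of all rows called moved from 7.06 to 5.57% at yellow and from 14.5 to 12.3% at brown. The 0 between brown and yellow became 0 to 2. In poly(A)-depleted libraries the 16 calls at yellow became 67 with TMM over annotated genes, 3 with library size only, 59 with DESeq2, 0 with the covariate, 96 in a fit of the 2 stages alone and 0 to 76 with each library left out. The 6 at brown became 16, 2, 32, 13 and 2 under these settings and 0 to 54 with each library left out. With TMM over annotated genes, the share of all rows called moved from 10.8 to 27.2% at yellow and from 5.66 to 8.16% at brown. With library size only, it moved to 4.51% at yellow and 3.61% at brown. The 0 between brown and yellow became 0 to 46. The interaction's 0 became 1 without the low-count filter, 1 with DESeq2, 4 without both brown libraries 3, 4 with a term for each pair of the same stage and number and 0 to 4 with each library left out. Among 17 stage and library-kind changes of named members, 285 of 346 alternatives gave the same call, 61 lost it and none changed direction. They include the changes given without a p, of XLOC_029270 between kinds and of XLOC_022294 and XLOC_025915 at poly(A)-depleted yellow. Most of the 17 were picked as the largest called changes, so the tally is a description. Same-numbered libraries deviated together at correlations of −0.194 to 0.637 in rRNA-depleted (2 of 9 over 0.1) and −0.186 to 0.490 in poly(A)-depleted libraries (4 of 9). Libraries of different number and stage ran from −0.522 to 0.490 and from −0.529 to 0.355. With 3 libraries per group these values do not settle whether the numbers pair the stages. With the replicate block 3 members were called at brown in poly(A)-depleted libraries in place of 6, and 1 in the interaction. Across kinds, libraries of the same stage and number deviated together at −0.141 to 0.625 (8 of 9 over 0.1). With 3 biological replicates and 3 libraries of each kind per stage, such pairs may share fruit, but the labels do not say so. Exchanging kinds within these pairs gave the share an exact p of 0.00391, the smallest possible. Their pair terms gave 173 calls between kinds, 66.5% of the members tested against 76.7% of all rows. Too low for the stage tests were 220 members in rRNA-depleted and 255 in the shallower poly(A)-depleted libraries.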
